A study of Caenorhabditis elegans with 11 samples.

Results

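The insulin receptor pathway of Caenorhabditis elegans was followed through 9 genes that lead from the receptor to the transcription factor at its end: daf-2, ist-1, age-1, daf-18, pdk-1, akt-1, akt-2, sgk-1 and daf-16. They were chosen by name, and every probe set of the array that the annotation assigns to 1 of these symbols alone was used. This gave 24 probe sets, from 1 for sgk-1 to 5 for pdk-1, and the 9 genes are 9 of 17118 genes with such a probe set. All animals were glp-1(e2141) hermaphrodites, which the labels call sterile: at high temperature this mutant lacks working GLP-1, the Notch family receptor on which proliferation of germ line stem cells depends. They were raised at 25 °C from embryos kept at 15 °C and taken as whole worms on day 8, and the controls carried the same allele. Without males, a 10 cm plate held 500 hermaphrodites. With males, it held 250 hermaphrodites and 250 wild-type males, which were taken off before RNA was made from 200 hermaphrodites.

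Without RNAi there were 3 arrays of worms kept alone, called glp-1 without males here, and 3 of worms kept with males, called glp-1 with males. Under RNAi against utx-1 there were 3 arrays without males and 2 with males, whose titles number them replicates 1 and 3, and per the labels the samples were independent experiments. UTX-1 is an enzyme that removes methyl groups from lysine 27 of histone H3. No empty-vector group is named, so loss of utx-1 and the RNAi treatment itself cannot be told apart. The number of hermaphrodites differed with the presence of males, so an effect of males cannot be told apart from that of hermaphrodite density.

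In this pathway DAF-2, the only receptor of the insulin and IGF type in the worm, signals through the phosphoinositide 3-kinase AGE-1, whose lipid product recruits PDK-1 and the kinases AKT-1 and AKT-2. DAF-18, a lipid phosphatase, removes that lipid and so opposes AGE-1. AKT phosphorylates the FOXO transcription factor DAF-16 and keeps it out of the nucleus, and animals that lack germ line stem cells need DAF-16 for their long life. Much of this control acts on proteins, which the arrays did not measure.

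Values are log2 expression values, in which a difference of 1 is a 2-fold difference. Differences are the second group minus the first, ± gives the standard error of the limma fit, and adjusted p-values are limma's after Benjamini-Hochberg adjustment over all 22548 probe sets. The words rose, fell and changed are kept for an adjusted p under 0.05. With so few arrays per group, groups can fail to overlap by chance. Lack of overlap is therefore given as a description and not as a test, and its share over all probe sets is not given here. Levels of different probe sets cannot be set against each other. Of the 24 probe sets, 11 had a mean below the median of all probe sets.

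The utx-1 RNAi with males arrays stood apart from the rest. They correlated with each other at r = 0.995 across probe sets and with the other 9 arrays at 0.961 to 0.983, while those 9 correlated at 0.987 or more among themselves. Their content of germ cell transcripts went against the label sterile: the mean over 17 germ cell markers was 6.71 and 6.89 on these arrays and between 3.57 and 4.17 on the other 9. In each of the other groups 9 to 11 of the 17 markers lay below the array median on every array, and in utx-1 RNAi with males none of the 17 did. With males under utx-1 RNAi all 17 germ cell markers rose (median difference 3.04), 8 of 10 oocyte and eggshell markers rose and 6 of 8 muscle markers fell. Transcripts of utx-1 itself differed by -2.47 ± 0.09 and -6.55 ± 0.36 at its 2 probe sets with RNAi in the absence of males (adjusted p = 1.27e-07 and 6.09e-06) and by -2.15 ± 0.10 and -4.18 ± 0.40 in their presence. Under RNAi utx-1 rose with males by 3.28 ± 0.40 at probe set 192746 (0.000114) and by 0.32 ± 0.10 at 174606 (0.0476). The interaction passed at 192746 (2.37 ± 0.54, 0.0179) and not at 174606 (0.32 ± 0.14, 0.226).

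Without RNAi, males changed 3 of the 24 probe sets, all lower, where 11.8% of all probe sets changed, 5.65% higher and 6.15% lower. Under utx-1 RNAi, males changed 4, of which 3 rose and 1 fell, where 20.9% of all changed, 11.8% higher and 9.03% lower. In the absence of males, utx-1 RNAi changed 0 of the 24 in limma, with 6 at an unadjusted p under 0.05, where 0.164% of all changed. In the presence of males, utx-1 RNAi changed 4, all higher, where 14% of all changed, 8.96% higher and 5.07% lower. The interaction, that is, how much the males effect was larger under utx-1 RNAi than without it, was past the threshold for 4, all positive, where 7.65% of all were, 6.42% positive and 1.23% negative. The split of the members' calls between higher and lower depended on the scaling, as calls were gained or lost. No member difference called under either setting changed sign. With arrays centred, 3 members rose and 6 fell with males under utx-1 RNAi, 4 rose and 3 fell with utx-1 RNAi in the presence of males, and 2 interactions were positive and 1 negative. With quantile normalization these splits were 3 and 2, 5 and 3, and 2 and 2, and males without RNAi had 1 higher and 3 lower calls. Single arrays also moved some of the counts: 1 member was called for males without RNAi when any 1 array of either group without RNAi was left out. Over all probe sets these omissions gave 1362 to 2048 calls, where all arrays gave 2661. Without utx-1 RNAi with males replicate 1, utx-1 RNAi in the presence of males changed 2 members. Over all probe sets that omission gave 1476 calls, where all arrays gave 3165. For the interaction 2 members were called without glp-1 without males replicate 1 or 2, or without replicate 1 of either utx-1 RNAi group. Over all probe sets these omissions gave 1137 to 1644 calls, where all arrays gave 1725. In the males comparisons the members' shares, 3 and 4 of 24, lay near those of all probe sets, and the median difference of the 24 was -0.02 without RNAi and -4.13e-05 under utx-1 RNAi beside -0.0064 and -0.03 over all probe sets. On the deposited scale no probe set of daf-2, ist-1, akt-1 or akt-2 passed in any comparison, and daf-18, age-1, pdk-1, sgk-1 and daf-16 had at least 1 call. In the comparison of males without RNAi, 2 of 6 epidermis markers fell, and their mean per array was 5.07 to 5.27 with males and 5.57 to 5.78 without. In it 2 of 17 germ cell markers rose and 1 fell, and 1 of 8 intestine markers rose and 1 fell. With males under utx-1 RNAi 3 of the 6 epidermis markers fell. No pdk-1 or sgk-1 probe set passed there on the deposited scale. The part of epidermal content in the falls of pdk-1 and sgk-1 was not tested. The comparisons share arrays, so their values below are given side by side and not as separate evidence.

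**Figure D1:**
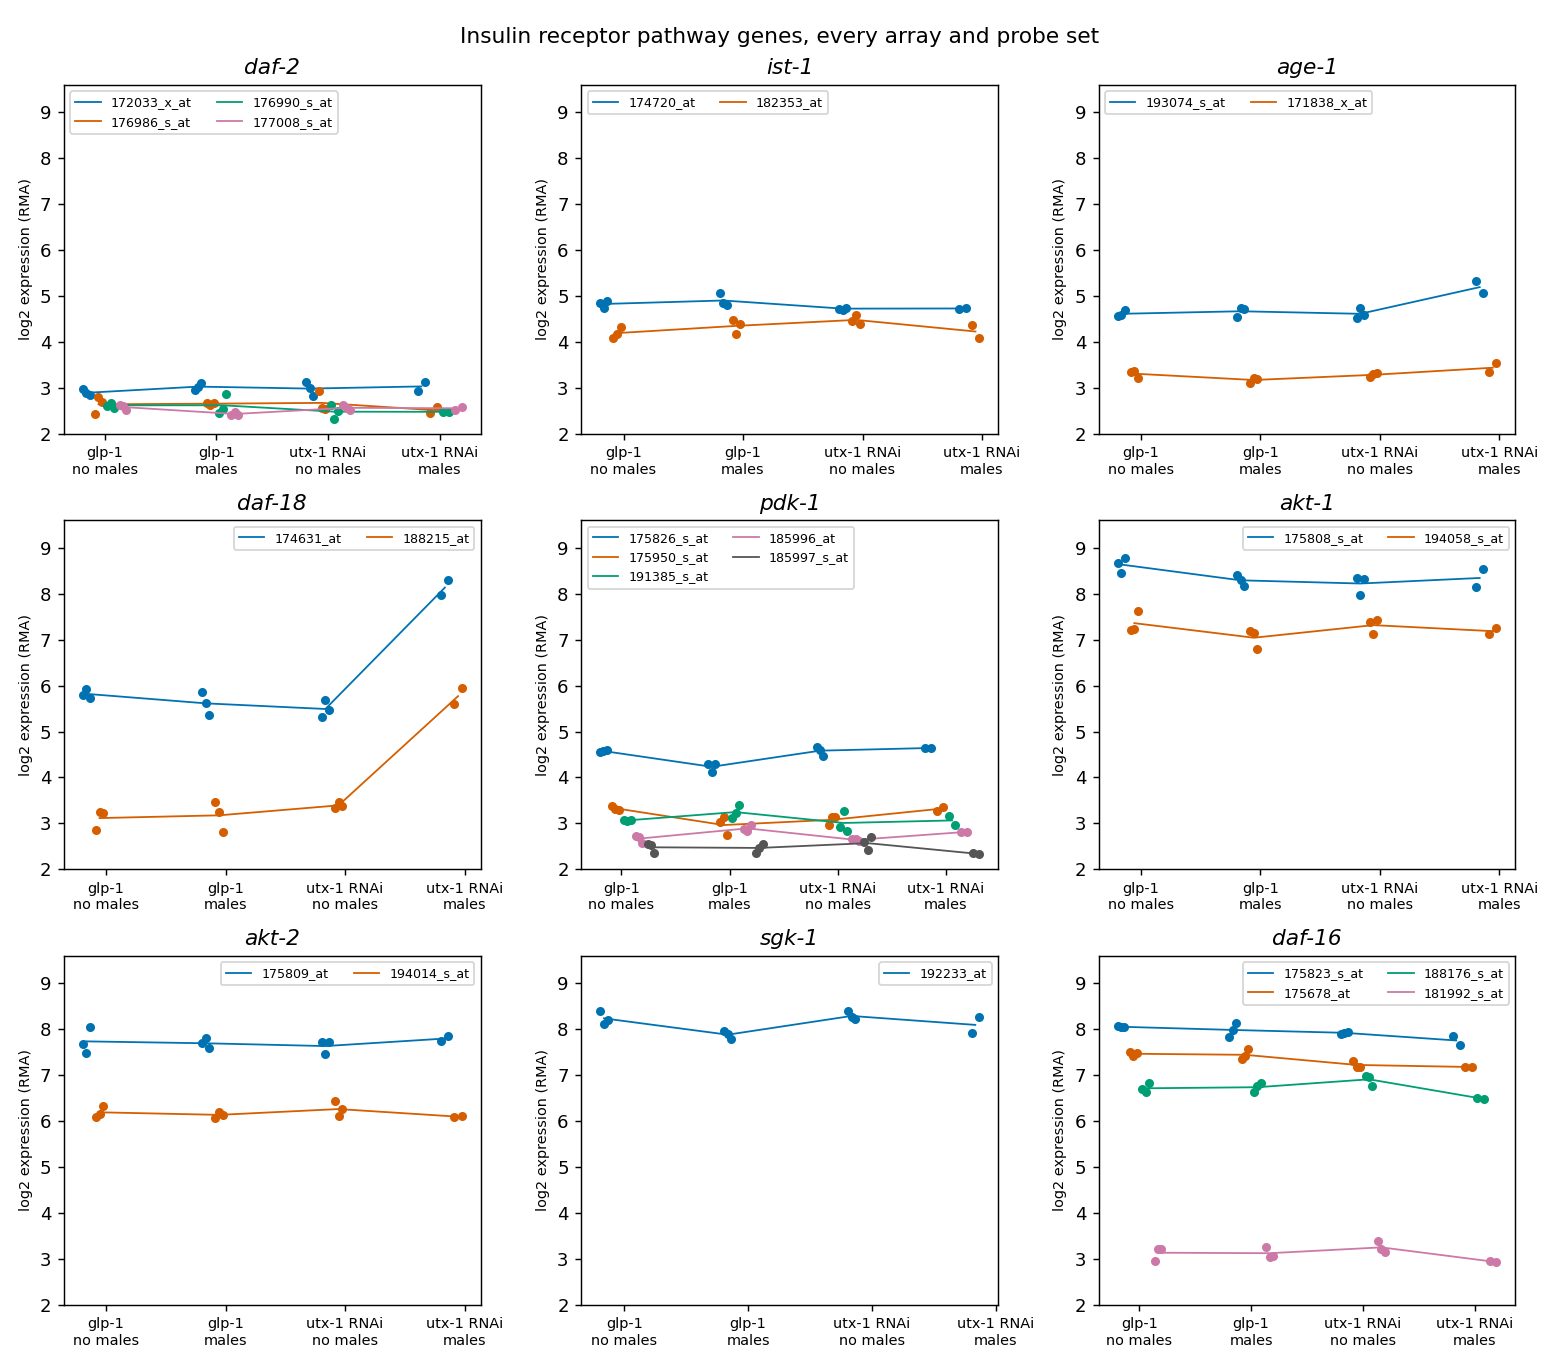
Log2 expression of every probe set of the 9 genes on each of the 11 arrays, with 1 panel per gene and 1 colour per probe set; points are arrays in 4 groups (3, 3, 3 and 2 arrays) and lines join the group means. The 2 arrays of utx-1 RNAi with males lie above all others for both daf-18 probe sets, and daf-2 stays near the bottom of the range in every group.

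Centring each array on its median moved the median of all differences by -0.12 in the males comparison under utx-1 RNAi, by -0.07 for utx-1 RNAi with males and by -0.11 for the interaction, so directions of small differences there depend on the scaling. Over all probe sets the males effect under utx-1 RNAi had 2671 higher and 2036 lower calls as deposited, 2012 and 5553 with centring, and 2414 and 3238 with quantile normalization. For utx-1 RNAi with males the splits were 2021 higher and 1144 lower, 1822 and 3190, and 1944 and 1966. For the interaction they were 1448 and 277, 1202 and 1185, and 1296 and 733. For utx-1 RNAi without males they were 8 and 29, 36 and 28, and 43 and 50.

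The receptor gene daf-2, on chromosome III, was dim, and none of its probe sets passed in any comparison. Its 4 probe sets had mean levels at percentiles 29.7, 12.9, 8.86 and 7.73 of all probe sets. The brightest of them, 172033, read 2.97, 2.88 and 2.83 in glp-1 without males, 2.95, 3.02 and 3.11 with males, 3.14, 3.00 and 2.81 under utx-1 RNAi without males, and 2.94 and 3.13 under utx-1 RNAi with males. The 4 groups overlapped. UTX-1 has been linked to the insulin pathway, with daf-2 named as a gene it acts on. Here the differences of utx-1 RNAi without males were 0.09 ± 0.09, 0.03 ± 0.12, -0.14 ± 0.11 and -0.02 ± 0.07 at the 4 probe sets, with 95% intervals that together ran from -0.37 to 0.30. The lowest adjusted p of limma among these 4 was 0.54. With males, the differences of utx-1 RNAi ran from -0.14 to 0.12. Probe set 177008 was 0.15 ± 0.07 lower with males without RNAi in arrays that did not overlap, a difference that did not pass (-0.15, adjusted p = 0.181). RMA can compress the differences of dim probe sets, and how far it did so for daf-2 was not tested.

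The gene ist-1, on chromosome X, encodes the worm relative of the insulin receptor substrates, adaptors that bind the activated receptor. Neither of its 2 probe sets passed in any comparison on the deposited scale. Probe set 182353 read 4.08, 4.18 and 4.33 in glp-1 without males, 4.49, 4.18 and 4.39 with males, 4.45, 4.59 and 4.40 under utx-1 RNAi without males, and 4.36 and 4.10 under utx-1 RNAi with males. The arrays of utx-1 RNAi without males all lay above those of glp-1 without males, by 0.29 ± 0.11, which did not pass (adjusted p = 0.205). The males effect under utx-1 RNAi was -0.25 ± 0.12 at this probe set (adjusted p = 0.162) and passed with arrays centred or quantile normalized (0.0284 and 0.0235). Its interaction, -0.41 ± 0.16 (0.166), passed with quantile normalization (-0.55, 0.0406). Probe set 174720 differed by between -0.17 and 0.08 in the 4 two-group comparisons, and its utx-1 RNAi difference in the presence of males, -0.17 ± 0.09 (0.227), passed with quantile normalization (-0.33, 0.0239).

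The lipid phosphatase gene daf-18, on chromosome IV, had the largest differences among the 9 genes, and they were seen in the arrays of utx-1 RNAi with males. Probe set 174631 read 5.79, 5.93 and 5.74 in glp-1 without males and 5.87, 5.63 and 5.35 in glp-1 with males. It read 5.32, 5.68 and 5.47 under utx-1 RNAi without males and 7.98 and 8.30 under utx-1 RNAi with males. The first 3 groups lay between 5.32 and 5.93, and both arrays of the last lay more than 2 log2 units above every other array.

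At this probe set daf-18 rose with males under utx-1 RNAi by 2.65 ± 0.15, or 6.26-fold (adjusted p = 2.09e-07), and with utx-1 RNAi in the presence of males by 2.52 ± 0.15, or 5.75-fold (3.75e-07). Without RNAi the males effect was -0.21 ± 0.14 (0.387). The interaction was 2.85 ± 0.21 (3.75e-06). The other daf-18 probe set, 188215, gave the same picture from a dimmer signal: 2.87, 3.25 and 3.23 in glp-1 without males, 3.47, 3.25 and 2.81 with males, 3.34, 3.46 and 3.37 under utx-1 RNAi without males, and 5.60 and 5.94 with both. It rose by 2.38 ± 0.18 with males under utx-1 RNAi (1.44e-06) and by 2.60 ± 0.18 with utx-1 RNAi in the presence of males (8.3e-07), with an interaction of 2.32 ± 0.24 (4.82e-05).

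Every alternative processing that gave a value kept these 6 calls, and leaving out either array of utx-1 RNAi with males was among them. Without males, the utx-1 RNAi difference was -0.33 ± 0.14 at 174631 and 0.28 ± 0.16 at 188215, opposite in sign and past no threshold (adjusted p = 0.254 and 0.4). The germ cell marker mean was also high in these 2 arrays, and the muscle marker mean was 6.97 and 7.27 there against 7.58 to 7.97 elsewhere. The part of germ cell content in the daf-18 result was not tested, and in whole worms more cells of a type and more RNA per cell cannot be told apart. Among genes with a single-symbol probe set, those whose centred values over the 11 arrays lay closest to those of daf-18 were him-3, mcm-6 and sas-5, with root mean square differences of 0.154, 0.165 and 0.167 beside a standard deviation of 1.03 for daf-18.

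**Figure D2:**
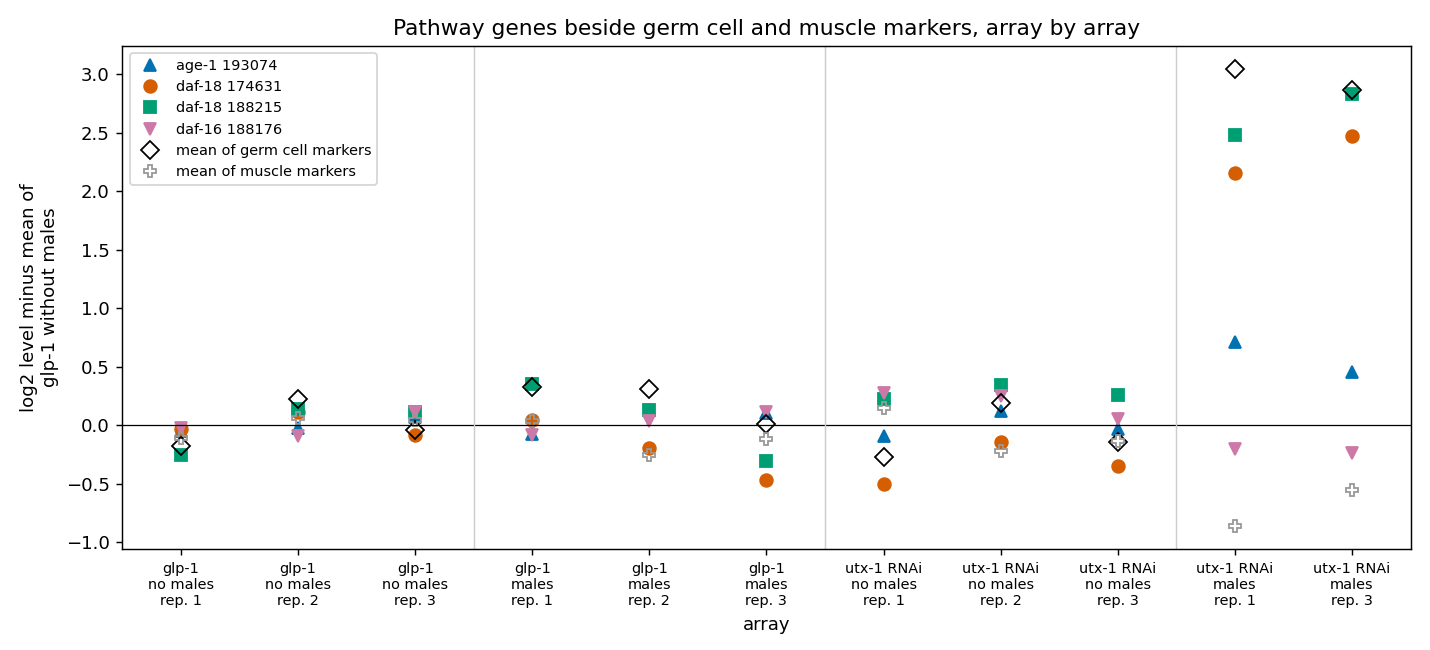
Log2 values of the 4 member probe sets that changed with males under utx-1 RNAi (2 of daf-18, 1 each of age-1 and daf-16) and the mean log2 value of the germ cell and muscle marker lists on each of the 11 arrays, relative to the mean of glp-1 without males. The 2 arrays of utx-1 RNAi with males are high for daf-18 and the germ cell markers and low for the muscle markers.

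The kinase that DAF-18 opposes is encoded by age-1, on chromosome II, the catalytic subunit of phosphoinositide 3-kinase. Probe set 193074 read 4.56, 4.59 and 4.69 in glp-1 without males, 4.54, 4.75 and 4.72 with males, 4.52, 4.74 and 4.58 under utx-1 RNAi without males, and 5.32 and 5.07 under utx-1 RNAi with males. The first 3 groups overlapped, and both arrays of the last were higher than all of them. With males under utx-1 RNAi age-1 rose by 0.58 ± 0.10, or 1.5-fold (adjusted p = 0.00195), and with utx-1 RNAi in the presence of males by 0.53 ± 0.10 (0.00504, and 0.0957 without utx-1 RNAi with males replicate 1). The interaction of 0.53 ± 0.14 passed narrowly (0.0405) and failed in 13 of 17 alternatives, with an adjusted p up to 0.211 without utx-1 RNAi with males replicate 1. The other probe set, 171838, differed in the same direction by 0.15 ± 0.09 and 0.27 ± 0.09 in these 2 comparisons and did not pass (0.252 and 0.0639), except for the second with quantile normalization (0.043). Closest to age-1 by the same measure were lsm-7, klp-10 and sna-1 at 0.0575, 0.062 and 0.0703, beside a standard deviation of 0.248. Germ cell content moved with this result as it did with daf-18, and its part was not tested.

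The kinase gene pdk-1, on chromosome X, encodes the kinase that activates AKT at the membrane. Its 5 probe sets did not move alike. The brightest, 175826, read 4.56, 4.58 and 4.59 in glp-1 without males and 4.28, 4.11 and 4.30 with males, which did not overlap, and it fell by 0.34 ± 0.08 (adjusted p = 0.0148). Under utx-1 RNAi it read 4.67, 4.60 and 4.48 without males and 4.65 and 4.64 with males, which overlapped, and the males effect there was 0.06 ± 0.09 (0.706). With utx-1 RNAi in the presence of males it rose by 0.41 ± 0.09 (0.00742). The males call was lost without glp-1 with males replicate 2 (0.0613) and the RNAi call without utx-1 RNAi with males replicate 1 (0.067), and the interaction did not pass (0.40 ± 0.12, 0.0592).

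Probe set 175950 of pdk-1 read 3.39, 3.31 and 3.29 in glp-1 without males, 3.02, 3.13 and 2.74 with males, 2.95, 3.13 and 3.15 under utx-1 RNAi without males, and 3.28 and 3.36 with both. The arrays with males lay below those without males when no RNAi was given and above them under utx-1 RNAi. It fell with males without RNAi by 0.37 ± 0.10 (adjusted p = 0.0356), and the interaction was 0.61 ± 0.15 (0.0283). Leaving out any array of glp-1 without males, or replicate 1 or 3 of glp-1 with males, ended the males call (0.0594 to 0.116), as did a fit of only the groups compared (0.0628). The interaction call ended without glp-1 without males replicate 1 (0.0583) or 2 (0.0574), utx-1 RNAi without males replicate 1 (0.0731), and utx-1 RNAi with males replicate 1 (0.0703) or 3 (0.0945), and with centring (0.0741) or quantile normalization (0.052). In all it was lost in 8 of 16 alternatives. The pdk-1 calls that include utx-1 RNAi with males rest on arrays high in germ cell transcripts, whose part was not tested. The remaining 3 probe sets, dimmer still, did not pass on the deposited scale: with males without RNAi they differed by 0.18 ± 0.11, 0.22 ± 0.07 and -0.01 ± 0.09 at 191385, 185996 and 185997. At 191385 (0.355) and 185996 (0.0669, and 0.0482 with quantile normalization) every array with males lay above every array without. The genes closest to pdk-1 at 175826 were sap-140, mccc-1 and mrpl-40, at 0.0524, 0.062 and 0.0632 beside a standard deviation of 0.183.

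The AKT genes code for the kinases that phosphorylate DAF-16. On chromosome V, akt-1 was bright and did not pass in any comparison. Probe set 175808 read 8.67, 8.46 and 8.78 in glp-1 without males, 8.40, 8.30 and 8.18 with males, 8.36, 7.99 and 8.33 under utx-1 RNAi without males, and 8.16 and 8.53 under utx-1 RNAi with males. Every array of glp-1 with males and of utx-1 RNAi without males lay below every array of glp-1 without males. The differences were -0.34 ± 0.13 for males (adjusted p = 0.114) and -0.41 ± 0.13 for utx-1 RNAi without males (0.149). Probe set 194058 gave -0.32 ± 0.13 for males without RNAi (0.16), again with no overlap, and -0.04 ± 0.13 for utx-1 RNAi without males (0.907), so the 2 probe sets differed on the second. For akt-2, on chromosome X, the 2 probe sets differed by -0.17 to 0.16 in the 4 two-group comparisons and no adjusted p was under 0.311. With centring, 194014 passed for males under utx-1 RNAi (-0.29, 0.0491), where the deposited scale gave -0.17 ± 0.11.

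The kinase gene sgk-1, on chromosome X, encodes a relative of AKT that also acts downstream of TOR complex 2. Its only probe set, 192233, read 8.40, 8.11 and 8.21 in glp-1 without males, 7.96, 7.89 and 7.80 with males, 8.39, 8.26 and 8.23 under utx-1 RNAi without males, and 7.92 and 8.28 with both. The groups did not overlap without RNAi and did overlap under utx-1 RNAi. It fell with males without RNAi by 0.36 ± 0.11, or 1.28-fold lower, at the threshold (adjusted p = 0.0497). The call ended in 11 of 19 alternatives, including the omission of any array of utx-1 RNAi without males or of either group without RNAi (0.05 to 0.18). The males effect under utx-1 RNAi was -0.19 ± 0.12 (0.291), and the interaction of 0.16 ± 0.16 (0.642) did not pass, with a 95% interval from -0.19 to 0.51. Closest to sgk-1 were K09C4.10, ech-6 and gmps-1 at 0.0649, 0.0701 and 0.074, beside a standard deviation of 0.208.

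The FOXO gene daf-16, on chromosome I, produces the transcription factor at the end of the pathway, and 1 of its 4 probe sets changed. Probe set 188176 read 6.69, 6.63 and 6.83 in glp-1 without males, 6.64, 6.76 and 6.83 with males, 6.99, 6.97 and 6.77 under utx-1 RNAi without males, and 6.51 and 6.48 under utx-1 RNAi with males. The males difference without RNAi was 0.02 ± 0.09, with overlapping groups, and under utx-1 RNAi both arrays with males lay below the 3 without. It fell by 0.42 ± 0.10 there, or 1.34-fold lower (adjusted p = 0.0092), and did not pass without utx-1 RNAi with males replicate 1 (0.061). The interaction was -0.44 ± 0.13 (0.0644), and it passed with centring (-0.55, 0.01), with quantile normalization (-0.53, 0.0162) and without utx-1 RNAi without males replicate 3 (0.0358). The utx-1 RNAi difference in the presence of males was -0.24 ± 0.10 (0.119) and passed with centring (0.0222) and quantile normalization (0.0299). Both utx-1 RNAi with males arrays had a high germ cell and a low muscle marker mean. The part of cell content in these daf-16 differences was not tested.

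The other daf-16 probe sets had negative differences with males under utx-1 RNAi that did not pass, at -0.31 ± 0.11 for 181992 (adjusted p = 0.0666), -0.17 ± 0.09 for 175823 (0.254) and -0.04 ± 0.09 for 175678 (0.78). With centring, 181992 (-0.43, 0.0094) and 175823 (-0.29, 0.0405) passed, and 181992 also passed without glp-1 without males replicate 1 (0.0402). Probe set 175678 read 7.51, 7.43 and 7.47 in glp-1 without males, 7.34, 7.42 and 7.58 with males, 7.30, 7.18 and 7.19 under utx-1 RNAi without males, and 7.17 and 7.19 with both. All 5 utx-1 RNAi arrays lay below all 6 others. The utx-1 RNAi differences were -0.24 ± 0.08 without males (0.151) and -0.26 ± 0.09 with males (0.0623), and the latter passed with centring (0.0135) or quantile normalization (0.0453). For 175823 that difference was -0.23 ± 0.09 (0.135) and passed with centring (0.0463). The 4 probe sets can read different transcripts of the gene and were not combined. The genes closest to daf-16 at 175823 were M01G12.10, gfrl-1 and Y49F6C.7 at 0.0444, 0.0489 and 0.0609, beside a standard deviation of 0.134.

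**Figure D3:**
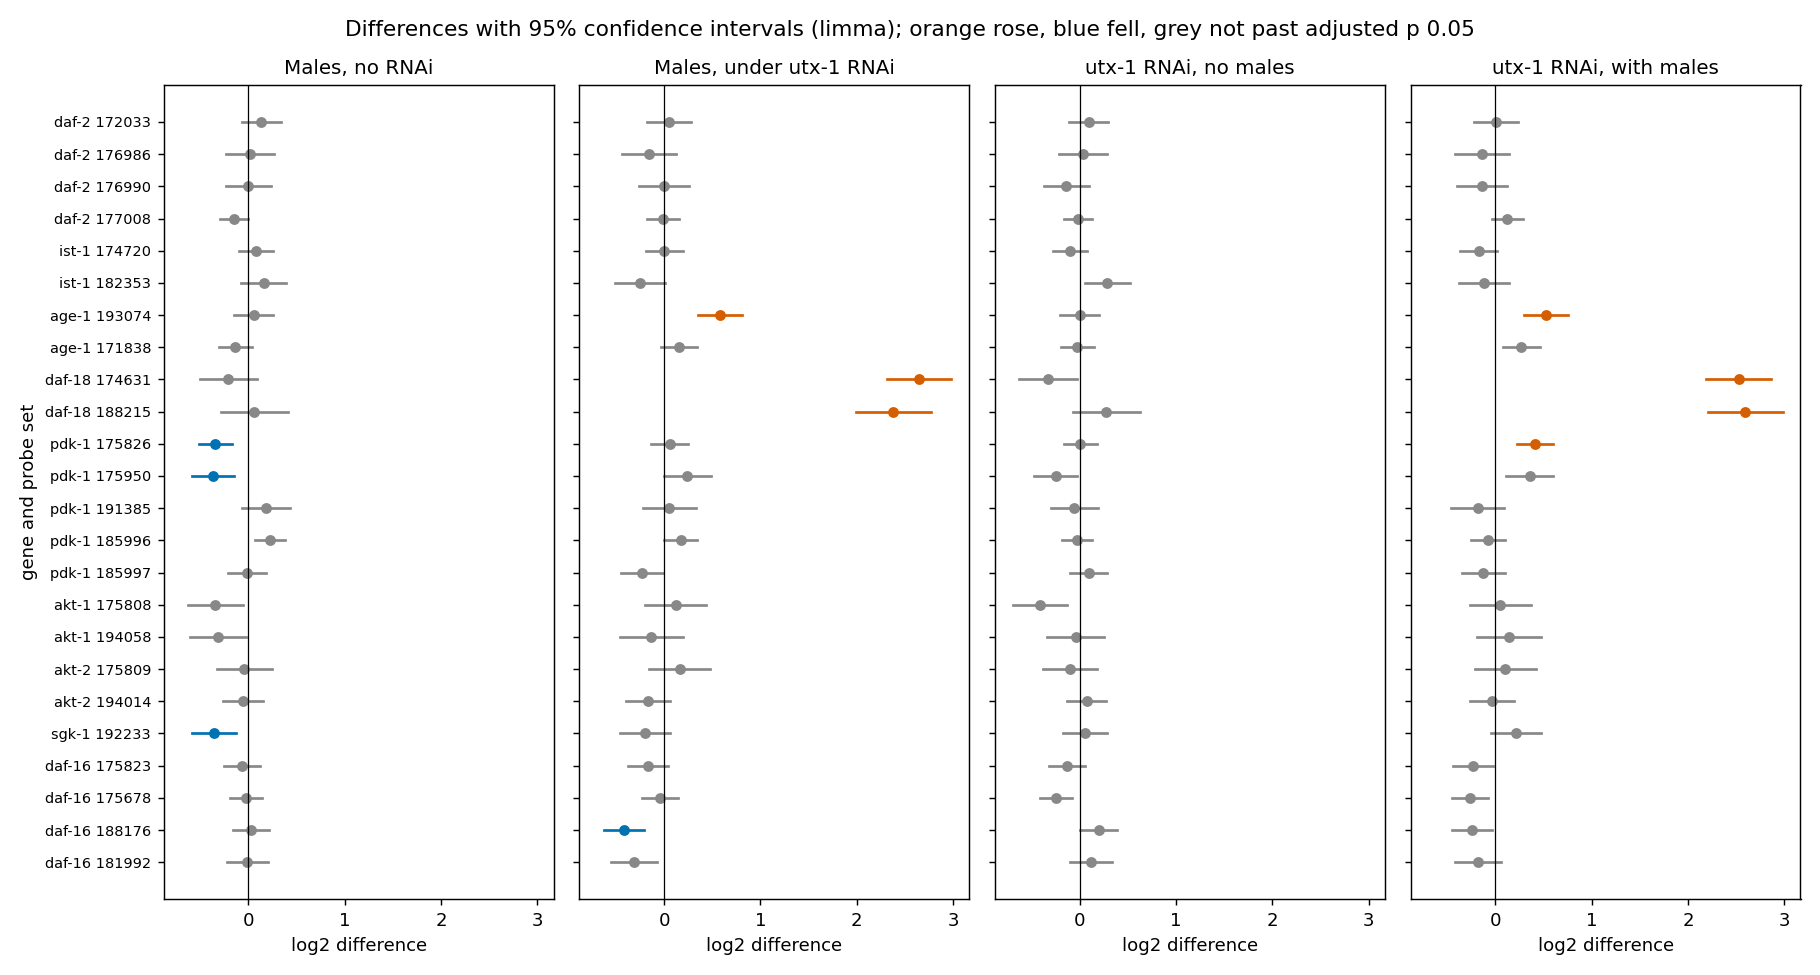
Log2 differences of the 24 probe sets with 95% confidence intervals from the fit, in the 4 two-group comparisons; orange rose, blue fell and grey did not pass. Both daf-18 probe sets lie near 2.5 in the 2 comparisons that involve utx-1 RNAi with males, and most other intervals include 0.

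The 4 genes on chromosome X, ist-1, pdk-1, akt-2 and sgk-1, hold 10 of the 24 probe sets. On the deposited scale none of the 10 changed with males under utx-1 RNAi. Of the 14 on autosomes 4 did, among them both of daf-18. With centring, 3 of the 10 fell, where 5553 of all 22548 probe sets fell: ist-1 182353 (0.0284), pdk-1 185997 (0.03) and akt-2 194014 (0.0491). With quantile normalization ist-1 182353 fell (0.0235), where 3238 of all probe sets fell. As deposited, 4.58% of all probe sets of genes on X rose and 15.6% fell, against 9.35 to 19.1% and 6.64 to 9.1% on the autosomes. The share on X alone with centring is not given here. The member counts are small, and no difference between X and the autosomes was tested for them. The part of germ cell content, high in the utx-1 RNAi with males arrays, was not tested.

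Other genes of the pathway were followed in lists with 1 probe set, the brightest, per gene. Over all probe sets, 5.65% rose and 6.15% fell with males without RNAi, and 11.8% and 9.03% under utx-1 RNAi. The list counts were not tested against these shares. Of 15 measured regulators of the receptor, PI3K and AKT, none rose or fell with males without RNAi (median 0.08). The lowest adjusted p of limma was that of let-92 (0.0621), which passed in 2 of 19 alternatives. The adaptor gene of PI3K, aap-1, differed by 0.48 ± 0.16 (adjusted p = 0.076). With males under utx-1 RNAi 3 of the 15 rose and none fell: aap-1 by 0.61 ± 0.18 (0.0315), pptr-2, which encodes a regulatory subunit of protein phosphatase 2A, by 0.28 ± 0.07 (0.0166), and eak-7 by 0.30 ± 0.09 (0.0291). With arrays centred on their medians the list had 1 higher and 3 lower calls, without utx-1 RNAi with males replicate 1 it had none, and without replicate 3 of either utx-1 RNAi group it had 1 higher call.

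Of 11 measured genes of the TOR kinase complexes and their regulators, 1 fell with males without RNAi: nprl-3, a relative of a subunit of the GATOR1 complex that restrains TORC1, by 0.29 ± 0.08 (adjusted p = 0.0354), a call that held in 11 of 19 alternatives and ended without any 1 array of either group. Under utx-1 RNAi 3 rose with males: nprl-3 by 0.56 ± 0.09 (0.00087), rheb-1, which encodes the GTPase that activates TORC1, by 0.44 ± 0.08 (0.00236), and rict-1, which encodes the Rictor subunit of TORC2, by 0.31 ± 0.09 (0.0365). The males effect on nprl-3 thus had opposite signs, and its interaction was 0.85 ± 0.12 (0.000602), the only one past the threshold in this list. With utx-1 RNAi in the presence of males 4 of the 11 rose, where 8.96% of all probe sets rose and 5.07% fell. Centring left 2 higher and 1 lower with males under utx-1 RNAi, and rict-1 did not pass without utx-1 RNAi with males replicate 1 (0.166).

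Of 21 measured partners and modifiers of DAF-16, 1 rose with males without RNAi: skn-1, which encodes a Nrf transcription factor, by 0.54 ± 0.12 (adjusted p = 0.016, and up to 0.0597 without glp-1 without males replicate 2). Under utx-1 RNAi 7 rose and 1 fell with males, where 11.8% of all probe sets rose and 9.03% fell. The largest rises were hcf-1, which encodes host cell factor, a nuclear repressor of DAF-16, by 1.14 ± 0.12 (3.64e-05), the RNA helicase gene hel-1 by 0.81 ± 0.08 (1.2e-05) and the nuclear import receptor gene imb-2 by 0.66 ± 0.09 (0.000273). The zinc finger factor gene pqm-1 rose by 0.38 ± 0.10 (0.0171). Each of hcf-1, hel-1 and imb-2 also had an interaction past the threshold, at 1.04 ± 0.16 (0.0014), 0.92 ± 0.10 (0.000103) and 0.83 ± 0.12 (0.000807). The calcium/calmodulin kinase gene unc-43 had a negative one, at -0.77 ± 0.20 (0.0342, and up to 0.157 without utx-1 RNAi with males replicate 1). Centring turned the males counts under utx-1 RNAi to 3 higher and 3 lower, without utx-1 RNAi with males replicate 1 they were 3 and 0, and without utx-1 RNAi without males replicate 1 or 3 they were 4 and 0. In these 3 lists the comparisons that include utx-1 RNAi with males rest on the arrays in which germ cell transcripts were high. The part of germ cell content was not tested.

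Targets of DAF-16 gave a mixed picture with males, where 5.65% of all probe sets rose and 6.15% fell without RNAi. Of 9 genes known to be raised by DAF-16, 3 rose without RNAi: the superoxide dismutase gene sod-3 by 0.68 ± 0.09 (adjusted p = 0.00176), and the small heat shock protein genes hsp-12.6 by 0.67 ± 0.12 (0.00452) and hsp-16.2 by 0.73 ± 0.18 (0.0226, and up to 0.065 without glp-1 with males replicate 2). The gene dod-3 fell by 0.91 ± 0.18 (0.00744). Under utx-1 RNAi hsp-12.6 rose by 0.60 ± 0.13 (0.00621) and no other of the 9 changed, and the interaction passed for sod-3 alone, at -0.55 ± 0.14 (0.0338, and up to 0.174 without utx-1 RNAi with males replicate 1). Of 7 measured genes lowered by DAF-16, the insulin-like peptide gene ins-7 rose by 0.74 ± 0.19 (0.0275, and up to 0.105 without glp-1 without males replicate 1). In the same list dod-24 fell by 1.25 ± 0.24 (0.00704) and dod-23 by 0.35 ± 0.08 (0.0165, and up to 0.0625 without glp-1 with males replicate 1). Under utx-1 RNAi dod-23 fell with males by 0.47 ± 0.09 (0.00292), a call that held in 18 of 18 alternatives, and no other of the 7 passed. The part of germ cell content in the target results that include utx-1 RNAi with males was not tested. The median difference with males without RNAi was -0.04 over the 9 and -0.19 over the 7, beside -0.0064 over all probe sets. In each of the 5 lists no gene changed with utx-1 RNAi without males, where 0.164% of all probe sets did. As limma's lowest adjusted p, dod-24 had -1.28 ± 0.24 (0.0574) and passed in 5 of 19 alternatives, down to 0.023. In the partners list math-33 (0.0687) passed in 1 of 19 (0.0469).

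**Figure D4:**
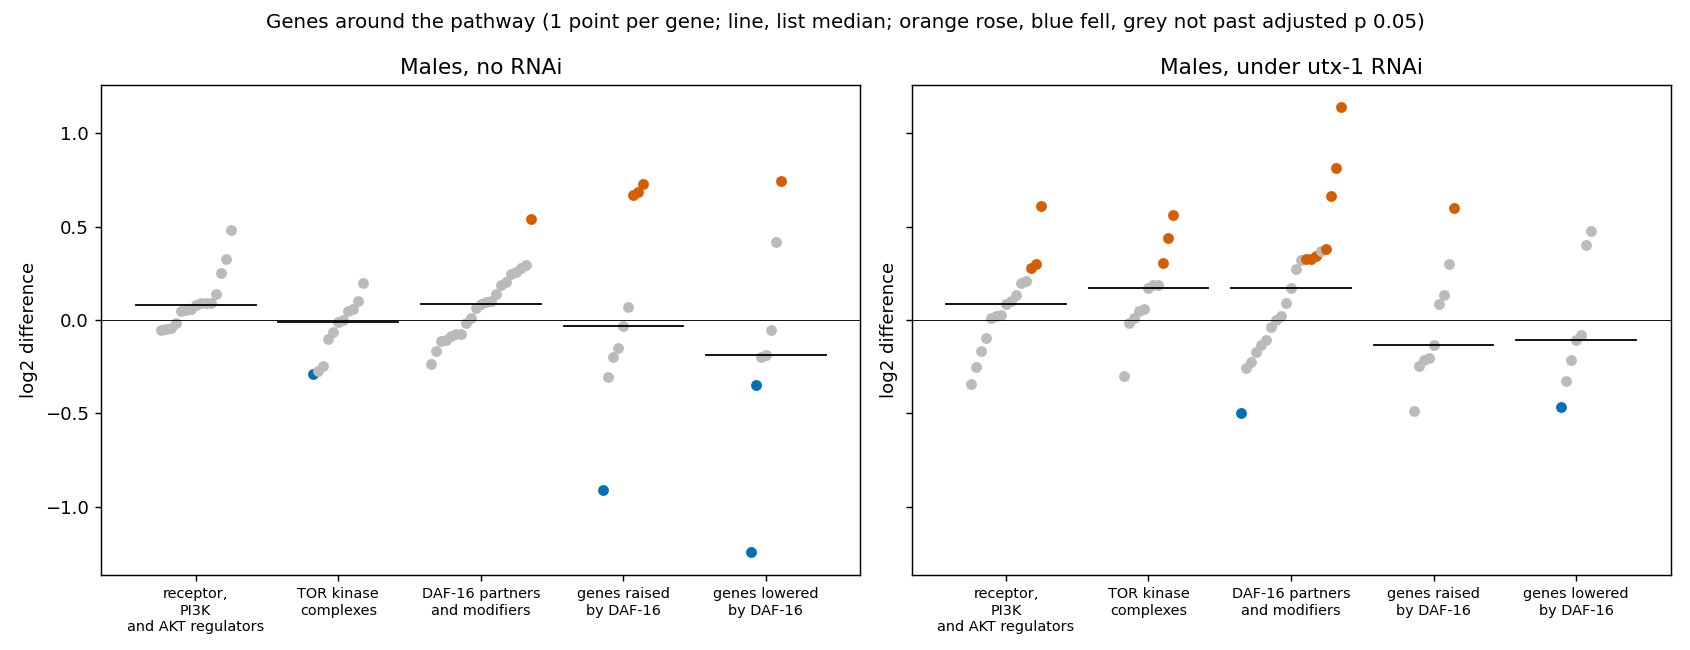
Log2 differences with males, without RNAi and under utx-1 RNAi, for each gene of the 5 pathway lists (1 point per gene and comparison; black lines are list medians, orange points rose, blue points fell and grey points did not pass). Among the DAF-16 partners and modifiers hcf-1, hel-1 and imb-2 lie highest under utx-1 RNAi, while the DAF-16 target lists spread to both sides of 0 without RNAi.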

How the data were processed

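RNA of whole hermaphrodites was measured on 11 Affymetrix arrays, and arrays were grouped by their titles. The authors used RMA, per the submitters' processing notes, and deposited 1 log2 value for each probe set and array; the RMA version and settings were not stated in the sources used. RMA compresses changes of dim probe sets. Values ran from 1.83 to 13.69 over 22625 probe sets, of which 77 controls were left out. Symbols came from the platform's annotation and were updated through the RefSeq table of WBcel235, which was used for names and chromosomes only. Related transcripts may bind the 16 member probe sets whose names end in _s_at or _x_at.

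Group means of all 11 arrays were fitted jointly in limma 3.58.1 (R 4.3.3; lmFit, contrasts.fit, eBayes), which had 7 residual and 4.84 prior degrees of freedom. Benjamini-Hochberg adjustment ran over the 22548 probe sets of each comparison. The procedure was tested on simulated data. The number of arrays limits the precision. Arrays of a group differed from each other with a standard deviation of at least 0.171, so none was a duplicate. The title replicate numbers did not pair the arrays. For 2 utx-1 RNAi arrays the title and the description give different replicate numbers, and titles were used.

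The genes named are the 9 members at every probe set, up to 4 genes of each pathway list with the smallest p per comparison, utx-1, and the 3 genes closest to each member with a call; probe sets of the lists are the brightest per gene. Members and lists were chosen with earlier results of these data known. Alternatives were another prior, scaling, filter, set of groups, replicate block, array weights and the omission of each array.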

Additional observations from a re-analysis of the deposited data

Results flagged for a closer look

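The males effect differed with utx-1 RNAi, by the interaction term of the limma fit, at 4 of the 24 probe sets of the pathway. Over all probe sets the share was 7.65%, with 6.42% positive and 1.23% negative. For daf-18 the interaction was 2.85 ± 0.21 at probe set 174631 (adjusted p = 3.75e-06) and 2.32 ± 0.24 at 188215 (4.82e-05). It was 0.53 ± 0.14 for age-1 at 193074 (0.0405) and 0.61 ± 0.15 for pdk-1 at 175950 (0.0283). The daf-18 calls held in every alternative that gave a value, while that of age-1 was lost in 13 of 17 and that of pdk-1 in 8 of 16. These differences rest on 2 arrays of utx-1 RNAi with males, in which germ cell transcripts were high. The part of germ cell content was not tested.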

How the results depend on the processing

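Of 2129 member differences recomputed under an alternative, 1971 kept their direction and side of the threshold, 43 lost a call, 20 gained one and 95 changed sign; no sign change involved a difference called under either setting. The number of members called with males without RNAi was 3 and became 1 with the replicate block, and over all probe sets 2661 became 1552. With arrays centred, the males effect under utx-1 RNAi had 9 members and 7565 probe sets called, where the deposited scale gave 4 and 4707, and utx-1 RNAi with males had 7 and 5012, where it gave 4 and 3165. Quantile normalization gave 8 members and 3910 probe sets for utx-1 RNAi with males. The interaction had 4 members and 1725 probe sets called as deposited. It had 2 and 1100 without dim probe sets, a setting that tests fewer of both, and 2 and 1303 with the replicate block. For pdk-1 175950 the block gave an adjusted p of 0.0749 for males without RNAi and 0.0526 for the interaction. For utx-1 RNAi without males, 37 probe sets were called, and 96 with the trended prior, 64 with centring, 93 with quantile normalization, 58 without dim probe sets, 6 with the replicate block, 65 with array weights and 18 with only both groups compared. The causes were not tested. Leaving out each array gave 1 to 3, 3 to 5, 0 to 0, 2 to 5 and 2 to 4 members called in the order males without RNAi, males under utx-1 RNAi, utx-1 RNAi without males, utx-1 RNAi in their presence, and interaction, and 1362 to 2732, 2028 to 4867, 5 to 59, 1476 to 3218 and 1137 to 1706 probe sets. Title numbers did not pair the arrays: 0 of 15 same-numbered pairs correlated above 0.1 (r from -0.352 to 0.0506), and 0 of 11 arrays correlated best with its own number. Of the pairs with different numbers, 14 of 30 correlated above 0.1. The values correlated are deviations from group means, so the pairs depend on each other and the 14 of 30 is not separate support. Pairing by the numbers in the descriptions was not tested. Leaving out the utx-1 RNAi with males group, chosen after seeing the data, gave 3 members and 2732 probe sets for males without RNAi. For utx-1 RNAi without males it gave 0 members and 40 probe sets. The differences that changed sign were small, at most 0.161 in size as reported. With arrays centred, for males without RNAi, daf-2 176990 was -0.011. For males under utx-1 RNAi, daf-2 172033 was -0.074, ist-1 174720 was -0.12, pdk-1 175826 was -0.063, pdk-1 191385 was -0.066 and akt-1 175808 was -0.00041. In utx-1 RNAi without males, daf-2 177008 was 0.023, age-1 193074 was 0.040, age-1 171838 was 0.015 and pdk-1 185996 was 0.011. For utx-1 RNAi with males, daf-2 172033 was -0.066 and akt-1 175808 was -0.019. With quantile normalization, for males without RNAi, daf-2 176990 was -0.0062. For males under utx-1 RNAi, daf-2 176990 was 0.024, daf-2 177008 was 0.016, ist-1 174720 was -0.17 and pdk-1 175826 was -0.11. For utx-1 RNAi without males, daf-2 177008 was 0.0075, age-1 193074 was 0.0036, age-1 171838 was 0.034 and pdk-1 185996 was 0.0035. For the interaction, daf-2 176990 was 0.030. With the replicate block, for males under utx-1 RNAi, daf-2 177008 was 0.0015 and ist-1 174720 was -0.024. For utx-1 RNAi with males, akt-1 175808 was -0.017. With array weights, for males without RNAi, daf-2 176986 was -0.038, daf-2 176990 was -0.069 and daf-16 188176 was -0.00092. For the interaction, daf-2 176990 was 0.052. When each array was left out in turn, the differences below changed sign at least once. For males without RNAi, daf-2 176986 ran from -0.088 to 0.092, daf-2 176990 from -0.12 to 0.083, ist-1 174720 from -0.0033 to 0.12 and daf-18 188215 from -0.086 to 0.24. For males without RNAi, pdk-1 185997 ran from -0.074 to 0.037, akt-2 175809 from -0.17 to 0.11, akt-2 194014 from -0.11 to 0.012 and daf-16 175823 from -0.15 to 0.0046. For males without RNAi, daf-16 175678 ran from -0.089 to 0.028, daf-16 188176 from -0.021 to 0.079 and daf-16 181992 from -0.10 to 0.035. For males under utx-1 RNAi, daf-2 172033 ran from -0.049 to 0.14, daf-2 176990 from -0.082 to 0.064, daf-2 177008 from -0.039 to 0.020 and ist-1 174720 from -0.0064 to 0.013. For males under utx-1 RNAi, pdk-1 191385 ran from -0.044 to 0.18 and akt-1 175808 from -0.067 to 0.31. In utx-1 RNAi without males, daf-2 176986 ran from -0.094 to 0.11, daf-2 177008 from -0.052 to 0.0092, age-1 193074 from -0.062 to 0.046 and age-1 171838 from -0.073 to 0.0032. For utx-1 RNAi without males, pdk-1 175826 ran from -0.038 to 0.061, pdk-1 191385 from -0.18 to 0.029, pdk-1 185996 from -0.080 to 0.0019 and akt-1 194058 from -0.11 to 0.091. In utx-1 RNAi without males, akt-2 175809 ran from -0.23 to 0.051, akt-2 194014 from -0.013 to 0.15 and sgk-1 192233 from -0.012 to 0.13. For utx-1 RNAi with males, daf-2 172033 ran from -0.092 to 0.10, ist-1 182353 from -0.26 to 0.0097 and akt-1 175808 from -0.14 to 0.24. For the interaction, daf-2 172033 ran from -0.18 to 0.0078, daf-2 176990 from -0.087 to 0.12, ist-1 174720 from -0.12 to 0.0068 and pdk-1 191385 from -0.23 to 0.00075. For the interaction, sgk-1 192233 ran from -0.020 to 0.34 and daf-16 175678 from -0.072 to 0.045. The mean level of 11 of the 24 probe sets, among them all 4 of daf-2, lay below the median of all probe sets, where RMA can compress differences.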
